A study of Mus musculus with 16 samples.

Results

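The immunity-related GTPases and the guanylate-binding proteins are families of large GTPases that interferon-gamma induces, and Irf1 encodes a transcription factor of the same response. The genes described here were Iigp1, Irgm1, Irgm2 and Igtp of the first family (IRG), Gbp2, Gbp3, Gbp6 and Gbp7 of the second (GBP), and Irf1. They were taken as every probe set of the array whose single annotated gene symbol was exactly one of these names. That gave 13 of 45101 probe sets, for 9 of the 18194 genes tested, with a pair of probe sets each for Gbp2, Gbp6, Gbp7 and Iigp1.

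The arrays held RNA of cells sorted from the peritoneal cavity of tumour-bearing female C57BL/6N mice and labelled as macrophages, in 4 groups of 4. All mice received 1 mg of tamoxifen once by mouth at 8 to 12 weeks of age and, 3 weeks later, an intraperitoneal injection of ID8-luciferase cells, a mouse ovarian cancer line that then grew for 4 weeks. RbpjiΔEC mice lacked Rbpj, the DNA-binding partner of Notch receptors, in endothelial cells after tamoxifen, and the other groups came from Control mice. Cells from the lavage that carried CD45, CD11b and the macrophage antigen encoded by Adgre1 were split by sorting into CCR2+ and CCR2- cells, which gave the groups CCR2+ Control, CCR2+ RbpjiΔEC, CCR2- Control and CCR2- RbpjiΔEC. The driver of the recombinase, the alleles of the Control mice and whether each array came from its own mouse are not given in the sources used here, so p-values may measure a technical spread. Rbpj was deleted in endothelial cells, not in the sorted cells, so its level in these arrays does not check the genotype labels. It read 11.36 ± 0.16 and 11.43 ± 0.29 in the CCR2+ Control and RbpjiΔEC arrays, and 10.44 ± 0.23 and 10.35 ± 0.21 in the CCR2- ones (log2 intensity, SD, n = 4 each).

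The CCR2 labels are used below as deposited, but marker genes set the labels apart in ways their names do not give. Adgre1, whose product the sort selected for, averaged 13.25 in CCR2+ Control and 9.21 in CCR2- Control arrays, and Itgam, which encodes CD11b, averaged 12.71 and 9.46. Large peritoneal macrophages reside in the cavity, and all 10 of their measured markers had higher levels in CCR2+ Control arrays, with summed linear levels of 75816 to 87494 against 4336 to 4946. For B cells, each of 11 measured markers was lower there, with sums of 3980 to 4285 against 65530 to 68148. Ccr2 itself, by the brightest of its 4 probe sets, averaged 7.99 against 9.99 in the CCR2- Control arrays. That difference was -1.99 (SE 0.63, limma adjusted p = 0.0184). In RbpjiΔEC mice it was -1.26 (SE 0.63, limma adjusted p = 0.135), which did not pass. The deposited columns also differed in kind by label. Array means lay between 821.5 and 827.3 in the CCR2+ columns, and between 481 and 762 in the CCR2- columns. A difference between the labels therefore carries the sort, the cell mixture and the processing of the columns together, and these cannot be told apart. In RNA from a mixture, fewer cells of a type and less RNA per cell cannot be told apart either.

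Interferon-gamma binds a receptor of the chains IFNGR1 and IFNGR2, which signals through the kinases JAK1 and JAK2. Gamma-activated sequences (GAS) are DNA elements known from genes that respond early, Irf1 among them, and IRF1 and related factors bind interferon-stimulated response elements (ISRE) in the promoters of many later genes. In mice, the IRG protein Iigp1 coats and breaks the vacuoles of intracellular parasites, while Irgm1, Irgm2 and Igtp (also called Irgm3) regulate the IRG effectors and mark the cell's own membranes. GBP proteins assemble on pathogen vacuoles and on bacteria, and they promote inflammasome activation. Macrophages are a cell type in which both families are strongly induced, and type I interferons induce several of the same genes.

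Promoters are shown because GAS and ISRE letters are known elements of interferon-induced genes. RefSeq promoter sequence of build GRCm38.p6 is shown for 7 of the 9 genes, and none is shown for Gbp6 and Iigp1. Each line gives the 120 bases just upstream of the annotated start, 5′ to 3′ on the gene's strand, in lower case. Capitals mark matches on either strand to the ISRE core GAAANNGAAA or to the GAS core TTCNNNGAA, which reads alike on both strands.
Gbp7 (chr3:142530216-142530335, plus strand): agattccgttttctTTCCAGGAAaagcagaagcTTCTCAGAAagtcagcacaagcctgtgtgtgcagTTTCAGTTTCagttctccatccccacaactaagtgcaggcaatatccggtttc
Igtp (chr11:58199436-58199555, plus strand): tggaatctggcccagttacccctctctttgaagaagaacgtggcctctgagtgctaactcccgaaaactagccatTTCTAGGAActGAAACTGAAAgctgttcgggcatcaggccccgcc
Irgm2 (chr11:58214857-58214976, plus strand): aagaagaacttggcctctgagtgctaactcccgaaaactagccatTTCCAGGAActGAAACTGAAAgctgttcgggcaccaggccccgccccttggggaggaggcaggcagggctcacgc
Gbp2 (chr3:142620543-142620662, plus strand): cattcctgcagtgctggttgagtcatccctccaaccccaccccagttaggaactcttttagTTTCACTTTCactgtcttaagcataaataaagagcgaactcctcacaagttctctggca
Gbp3 (chr3:142559924-142560043, plus strand): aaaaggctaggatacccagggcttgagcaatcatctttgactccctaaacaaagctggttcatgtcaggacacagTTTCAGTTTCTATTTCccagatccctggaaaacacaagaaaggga
Irgm1 (chr11:48871421-48871540, minus strand): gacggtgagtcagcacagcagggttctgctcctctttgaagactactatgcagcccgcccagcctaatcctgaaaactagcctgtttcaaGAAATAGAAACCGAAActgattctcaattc
Irf1 (chr11:53769894-53770013, plus strand): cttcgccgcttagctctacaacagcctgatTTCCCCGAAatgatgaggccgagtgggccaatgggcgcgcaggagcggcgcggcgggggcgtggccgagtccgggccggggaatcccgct

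An ISRE core was found in 6 of the 7 windows and a GAS core in 4. Of all 32851 promoter windows of the same length, 401 (1.22%) held the ISRE core, 1034 (3.15%) the GAS core and 20 (0.0609%) both. Gbp7, Igtp and Irgm2 held both motifs, Gbp2, Gbp3 and Irgm1 the ISRE core alone, and Irf1 the GAS core alone. The GAS core of Irf1 lay 90 to 82 bases upstream of the start, and the ISRE core of Gbp2 59 to 50 bases upstream. Gbp3 and Irgm1 each held 2 overlapping ISRE cores, and Gbp7 held 2 separate GAS cores. In Igtp and Irgm2, neighbours on chromosome 11, the GAS core stood just before the ISRE core, and their windows shared an unbroken run of 38 bases. Gbp7, Gbp3 and Gbp2 lie in 1 cluster on chromosome 3, with Gbp2b between Gbp3 and Gbp2. Gbp3 and Irf1 each have a second annotated start, and neither of those windows held a motif. A match of letters is a description and does not show that a factor binds there.

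**Figure D1:**
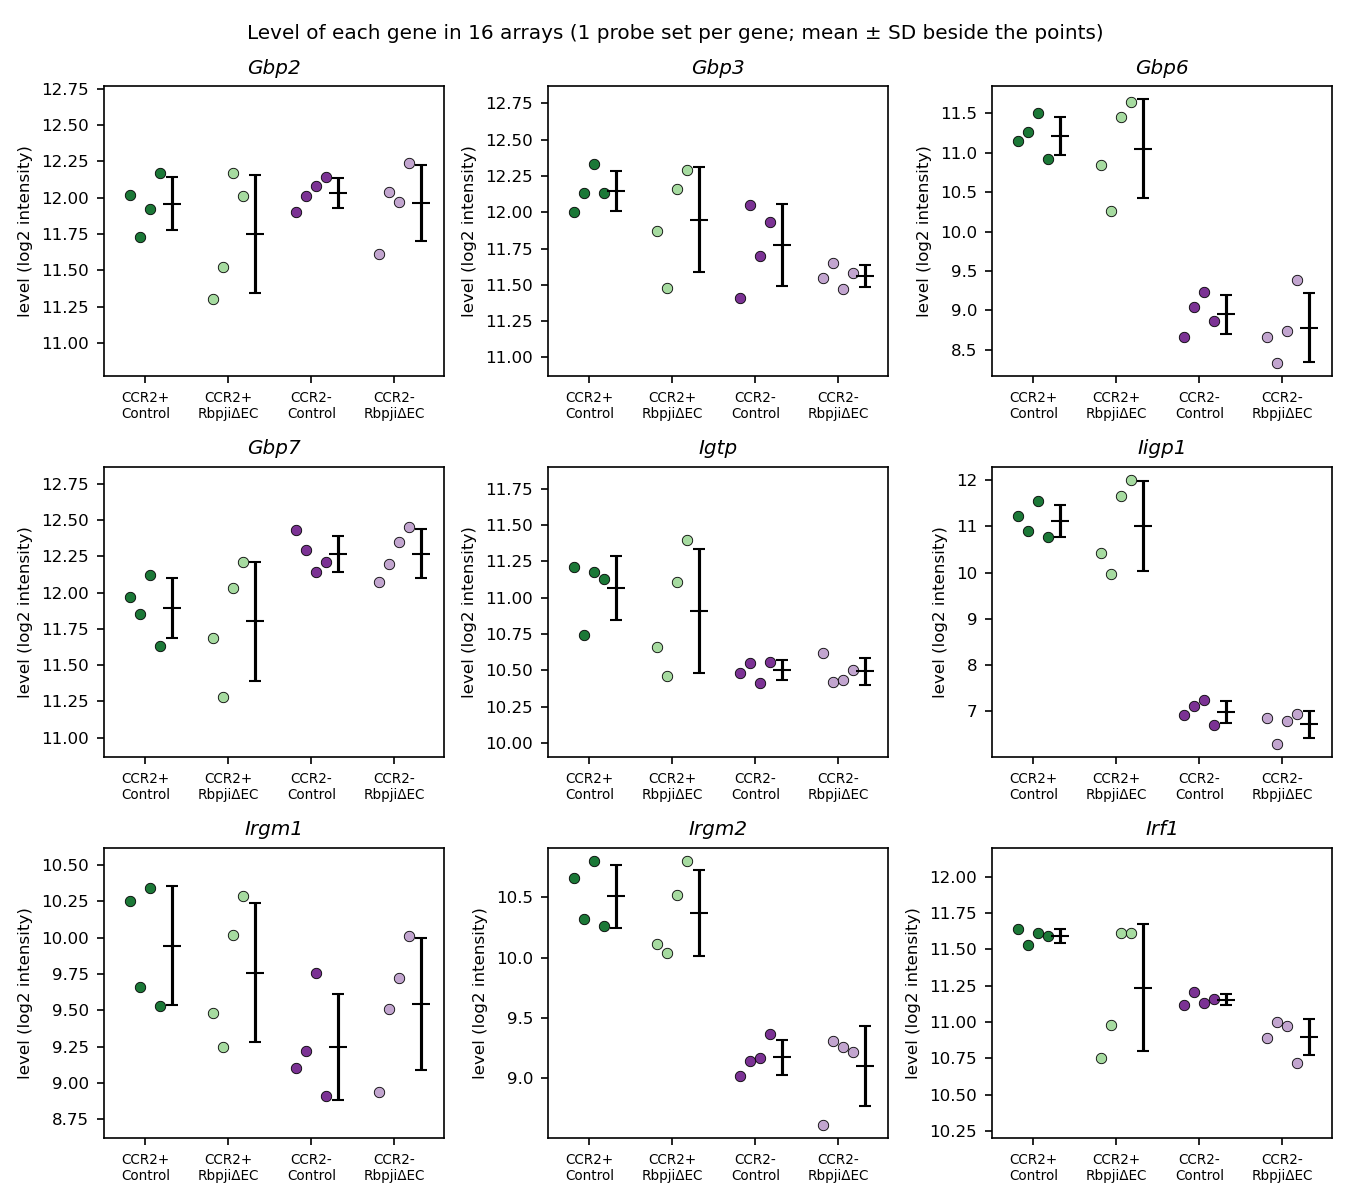
Level of each of the 9 genes (1 probe set per gene) in the 16 arrays. Each point is 1 array, the y axis is log2 intensity after quantile normalization with its own range for each gene, and the bars give the mean and SD of 4 arrays. Iigp1, Gbp6 and Irgm2 show 2 separate levels by CCR2 label, and the CCR2+ RbpjiΔEC arrays split into a lower and a higher pair in all 9 panels. The share of all genes that split so was not counted.

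The first comparison asked how the sorted CCR2+ and CCR2- cells of Control mice differ. All 4 IRG genes, 1 of the 4 GBP genes and Irf1 had higher levels under the CCR2+ label, led by Iigp1 at 17.4-fold, Gbp6 at 4.79-fold and Irgm2 at 2.52-fold. In all, 6 of the 9 genes were higher and 0 lower at limma adjusted p under 0.05, where 19.4% of all genes were called higher, 21.4% lower and 40.8% in either direction. The groups did not overlap for 5 of the 9 genes in the higher direction (17.9% of all genes) and for 1 in the lower (19.5%). The median difference of the 9 genes was 0.57 log2 units, against -0.03 for all genes. The split of all calls, 3532 higher and 3891 lower, moved to 4405 and 2607 when arrays were centred on their medians and to 4599 and 1726 in log2 of the deposited values.

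Iigp1, the vacuole-breaking effector, read 11.22, 10.90, 11.56 and 10.78 in the 4 CCR2+ Control arrays and 6.91, 7.12, 7.24 and 6.70 in the CCR2- Control arrays. The groups were far apart, and the CCR2- values were close to the level of a bacterial trp control that mouse RNA should not bind (6.35 to 6.51 over all arrays). The fold may therefore understate the difference, which was not tested. The difference was 4.12 (SE 0.34, limma adjusted p = 4.27e-08), and the second Iigp1 probe set gave 4.10 (SE 0.41). Irgm2, a regulatory IRG gene, read 10.66, 10.32, 10.80 and 10.26 against 9.02, 9.14, 9.17 and 9.37. Every CCR2+ array lay above every CCR2- array, and the gap was 1.33 (SE 0.19, limma adjusted p = 1.78e-05).

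Igtp, another regulatory IRG gene, read 11.21, 10.74, 11.18 and 11.13 in CCR2+ Control and 10.48, 10.55, 10.41 and 10.56 in CCR2- Control arrays. The groups did not overlap, and the second CCR2+ array came nearest to the CCR2- values. The difference was 0.57 (SE 0.16, limma adjusted p = 0.00986). Irgm1, which in mice also controls autophagy, read 10.25, 9.66, 10.34 and 9.53 against 9.10, 9.22, 9.76 and 8.91. Here the groups overlapped through the third CCR2- array. The difference of 0.70 (SE 0.27) passed with a limma adjusted p of 0.0484. Leaving out any one of 9 arrays ended the Irgm1 call: CCR2+ Control 1 and 3, CCR2- Control 1, 2 and 4, CCR2+ RbpjiΔEC 1 and 3, and CCR2- RbpjiΔEC 2 and 3, with adjusted p of 0.052 to 0.139.

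Among the GBP genes, Gbp6 read 11.15, 11.26, 11.50 and 10.92 in CCR2+ Control and 8.66, 9.04, 9.23 and 8.86 in CCR2- Control arrays. The groups were separate by a mean of 2.26 (SE 0.26, limma adjusted p = 2.64e-06), and the second Gbp6 probe set gave 1.82 (SE 0.27). Gbp3 read 12.00, 12.13, 12.33 and 12.13 against 11.41, 12.05, 11.70 and 11.93. These groups overlapped, and the difference of 0.37 (SE 0.16) had a limma adjusted p of 0.0732. It was 0.92 (adjusted p = 0.00208) with median centring, and the call was also made without CCR2- Control 2 (0.47, adjusted p = 0.0367) or without CCR2+ RbpjiΔEC 2 (adjusted p = 0.0302).

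Gbp7 and Gbp2 did not share that direction. Gbp7 read 11.97, 11.85, 12.12 and 11.63 in CCR2+ Control and 12.43, 12.29, 12.14 and 12.21 in CCR2- Control arrays. All CCR2+ values lay below all CCR2- values by a narrow margin, and the difference of -0.38 (SE 0.16) had a limma adjusted p of 0.0801. The sign of Gbp7 turned to 0.18 with median centring and to 0.24 in log2 of the deposited values, while without CCR2+ RbpjiΔEC 2 it passed at -0.38 (adjusted p = 0.0284). Gbp2 read 12.02, 11.73, 11.92 and 12.17 against 11.90, 12.01, 12.08 and 12.14, a full overlap that left -0.07 (SE 0.17, limma adjusted p = 0.791). Its 2 probe sets disagreed. The other, a probe set of the x_at type, whose probes can also bind other transcripts, read 10.98, 10.88, 11.51 and 11.26 against 10.41, 10.62, 10.70 and 10.61, higher in all CCR2+ arrays by 0.58 (SE 0.20, limma adjusted p = 0.0293 over all probe sets, of which 41.6% were called). Paralogous GBP genes are similar in sequence, so the split of signal between them is uncertain.

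Irf1, the transcription factor, read 11.64, 11.53, 11.61 and 11.59 in CCR2+ Control and 11.12, 11.21, 11.13 and 11.16 in CCR2- Control arrays. Both groups were tight (SD 0.04 each) and did not overlap. The difference was 0.44 (SE 0.15, limma adjusted p = 0.0295), a 1.36-fold higher level. The fit pools the spread over the 4 groups, the wider CCR2+ RbpjiΔEC included. The call was lost without any one of 6 Control arrays (CCR2+ Control 1, 3 and 4 and CCR2- Control 1, 3 and 4), with a difference of 0.43 to 0.44 and adjusted p of 0.05 to 0.0619.

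**Figure D2:**
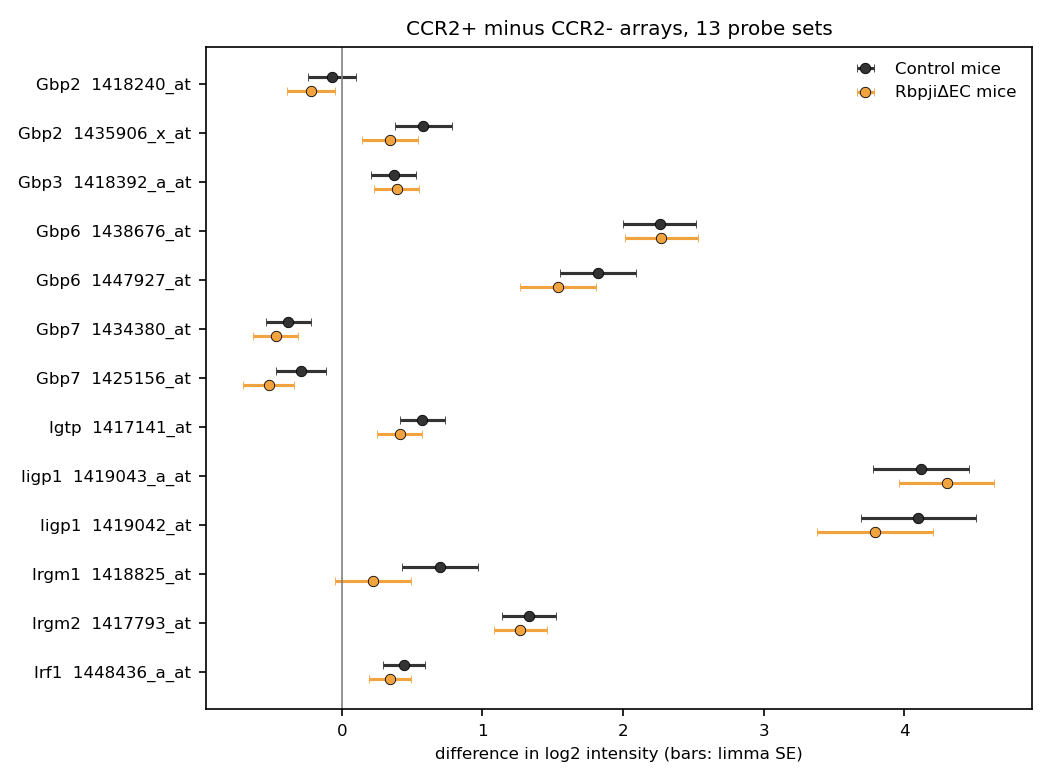
Difference between CCR2+ and CCR2- arrays for each of the 13 probe sets, in Control and in RbpjiΔEC mice. The x axis is the difference in log2 intensity, points are limma estimates and bars their SE. Both Iigp1 probe sets lie near 4 (3.79 to 4.30) and the Gbp6 and Irgm2 probe sets between 1.27 and 2.27. Gbp7 lies below 0, a sign that turns in log2 of the deposited values in both genotypes, and the 2 probe sets of Gbp2 lie on opposite sides of 0.

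The same comparison in RbpjiΔEC mice gave the same 3 leading genes. At limma adjusted p under 0.05, 3 of the 9 genes were higher in the CCR2+ arrays (18.1% of all genes) and 1 was lower (21% of all genes, 39.1% in either direction). Groups did not overlap for 3 genes in the higher direction (17.4% of all genes) and for 0 in the lower (20.7%). The median difference was 0.39, against -0.03 for all genes. With median centring the 9 genes gave 6 higher and 0 lower, and with array weights also 6 and 0, in both with Gbp3, Igtp and Irf1 added and Gbp7 lost, and in log2 of the deposited values 7 and 0. All calls split into 3290 higher and 3817 lower, into 3529 and 2842 with median centring, and into 5704 and 1193 in log2 of the deposited values, where the median of all genes itself stood at 0.23.

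Iigp1 read 10.42, 9.97, 11.66 and 12.00 in the CCR2+ RbpjiΔEC and 6.86, 6.29, 6.79 and 6.94 in the CCR2- RbpjiΔEC arrays. The CCR2+ values ran over 2 log2 units yet stayed well above the CCR2- values. The latter lay close to the trp control or, in array 2, below it, so this difference too may be an understatement. It was 4.30 (SE 0.34, limma adjusted p = 2.54e-08). For Gbp6 the values were 10.85, 10.26, 11.46 and 11.64 against 8.66, 8.33, 8.74 and 9.38, apart by a mean of 2.27 (SE 0.26, limma adjusted p = 2.49e-06). For Irgm2 they were 10.11, 10.04, 10.52 and 10.80 against 8.61, 9.31, 9.26 and 9.22. Neither of these genes overlapped between the groups, and the Irgm2 difference was 1.27 (SE 0.19, limma adjusted p = 3.15e-05).

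Gbp7 was the gene called lower, at 11.69, 11.28, 12.03 and 12.21 in the CCR2+ and 12.07, 12.20, 12.35 and 12.45 in the CCR2- RbpjiΔEC arrays. The groups overlapped, and the means differed by -0.47 (SE 0.16, limma adjusted p = 0.0332), and the second Gbp7 probe set gave -0.52 (adjusted p = 0.0263 over all probe sets). The Gbp7 difference was -0.10 with median centring and 0.19 in log2 of the deposited values. The call was lost without CCR2+ RbpjiΔEC 1 or 2 (-0.43 and -0.29) and without CCR2- RbpjiΔEC 2, 3 or 4 (-0.49, -0.44 and -0.41), with adjusted p of 0.0502 to 0.117.

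The other 5 genes did not pass in RbpjiΔEC mice. Igtp read 10.66, 10.46, 11.11 and 11.40 against 10.62, 10.42, 10.43 and 10.50, and its difference of 0.41 (SE 0.16) had a limma adjusted p of 0.0542. Irf1 read 10.75, 10.98, 11.61 and 11.61 against 10.89, 11.00, 10.97 and 10.72, with 0.34 (SE 0.15, limma adjusted p = 0.0871). In both, CCR2+ RbpjiΔEC arrays 3 and 4 stood above all CCR2- arrays and arrays 1 and 2 fell among or next to them. Without CCR2+ RbpjiΔEC 2 both were called (Igtp 0.56, adjusted p = 0.00697, and Irf1 0.43, adjusted p = 0.044), as they were without array 1 of that group (0.50 and 0.51, adjusted p = 0.0324 and 0.00555). Igtp was also called without CCR2+ Control 2 (adjusted p = 0.0436).

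Gbp3 read 11.87, 11.48, 12.16 and 12.29 in the CCR2+ and 11.55, 11.65, 11.47 and 11.58 in the CCR2- RbpjiΔEC arrays, a difference of 0.39 (SE 0.16, limma adjusted p = 0.0655). It passed without CCR2+ RbpjiΔEC 2 (0.54, adjusted p = 0.00576) or without CCR2- Control 1 (adjusted p = 0.0436). Irgm1 read 9.48, 9.25, 10.02 and 10.29 against 8.94, 9.51, 9.72 and 10.01, a broad overlap and a mean gap of 0.22 (SE 0.27, limma adjusted p = 0.578). Gbp2 read 11.30, 11.52, 12.17 and 12.01 against 11.61, 12.04, 11.97 and 12.24, with -0.22 (SE 0.17, limma adjusted p = 0.362), a sign that turned to 0.17 with median centring. Igtp, Irf1 and Irgm1 thus passed in Control mice and not in RbpjiΔEC mice, but the test of that change itself, the interaction, did not pass for any of them. It was -0.15 (95% interval -0.64 to 0.34) for Igtp, -0.09 (-0.55 to 0.36) for Irf1 and -0.48 (-1.29 to 0.33) for Irgm1, each with a limma adjusted p of 0.999.

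Over the 4 groups the order of the levels was alike for Gbp3, Gbp6, Igtp, Iigp1, Irgm2 and Irf1. It ran from CCR2+ Control through CCR2+ RbpjiΔEC and CCR2- Control to CCR2- RbpjiΔEC. No genotype step in this order was called, and for Igtp the CCR2- step was only from 10.50 to 10.49. Signs of the genotype steps of Gbp6, Igtp, Iigp1 and Irgm2 turned in other settings, given below. The share of all genes with this order was not counted. For Iigp1 the group means were 11.11 ± 0.35, 11.01 ± 0.97, 6.99 ± 0.24 and 6.72 ± 0.29 (SD, n = 4 each), so that only the step between the labels exceeded the spread. Gbp6 likewise stepped from 11.21 ± 0.24 and 11.05 ± 0.63 to 8.95 ± 0.24 and 8.78 ± 0.44. Irf1 stood at 11.59 ± 0.04, 11.24 ± 0.44, 11.16 ± 0.04 and 10.89 ± 0.12, and here CCR2+ RbpjiΔEC and CCR2- Control, neighbours in the order, differed by less than the SD of the former.

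The second comparison asked whether loss of endothelial Rbpj changes these genes in the CCR2+ arrays, and none of the 9 was called. No gene of the 18194 passed (0 called, 0%) with limma, and 830 (4.56%) had an unadjusted p under 0.05, Irf1 among them as 1 of the 9. All 9 differences were negative, where 52.5% of all genes were, with a median of -0.16 against -0.01. The 9 genes were read on the same arrays and varied together, so their signs are not 9 separate observations, in either label. Irf1 had the lowest value at -0.36 (SE 0.15, 95% interval -0.68 to -0.03, limma adjusted p = 0.966). Its 2 groups overlapped, since RbpjiΔEC arrays 3 and 4, at 11.61 each, equalled the Control arrays (11.53 to 11.64), and only arrays 1 and 2, at 10.75 and 10.98, were lower.

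For the GTPases the intervals contained 0. They were -0.83 to 0.63 for Iigp1, -0.53 to 0.25 for Irgm2, -0.50 to 0.19 for Igtp and -0.76 to 0.38 for Irgm1. Among GBP genes they were -0.58 to 0.15 for Gbp2, -0.53 to 0.14 for Gbp3, -0.72 to 0.40 for Gbp6 and -0.44 to 0.26 for Gbp7. The widest of these intervals was that of Iigp1. The shared negative sign rested partly on array RbpjiΔEC 2: without it Gbp6, Gbp7 and Iigp1 read 0.11, 0.08 and 0.25. Without array RbpjiΔEC 1 Iigp1 read 0.10, and without Control 3 it read 0.05. With limma's array weights Gbp6, Gbp7, Igtp and Iigp1 turned to 0.06, 0.05, 0.06 and 0.30.

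**Figure D3:**
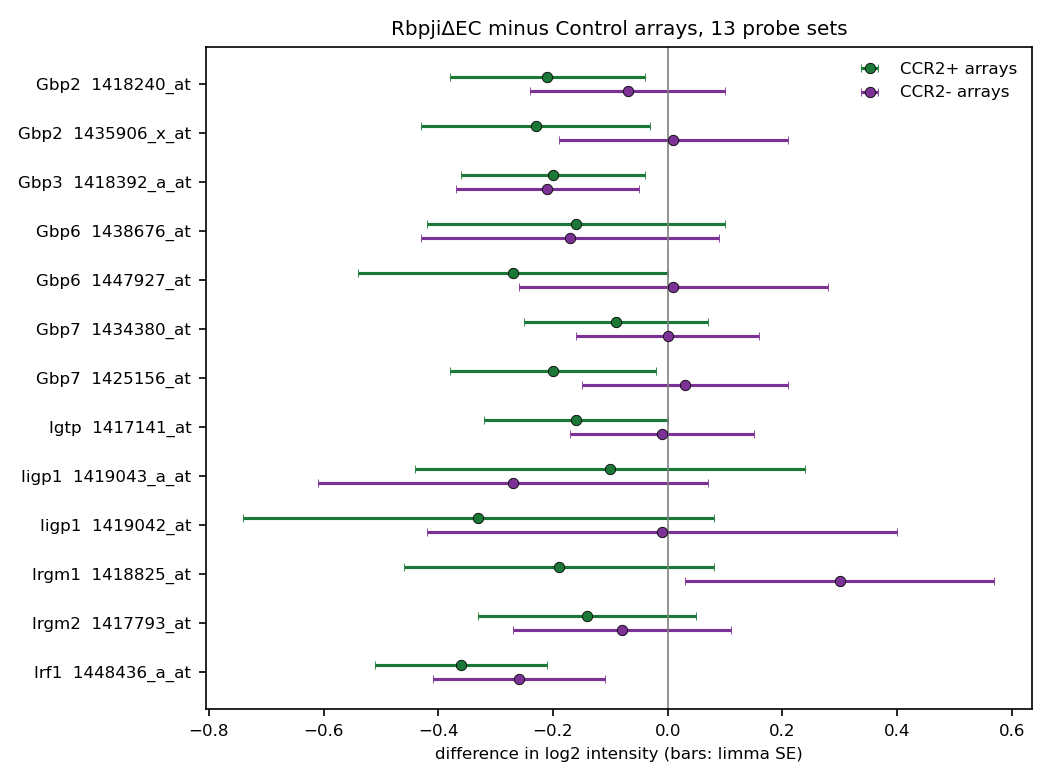
Difference between RbpjiΔEC and Control mice for each of the 13 probe sets, in CCR2+ and in CCR2- arrays. The x axis is the difference in log2 intensity, points are limma estimates and bars their SE. In the CCR2+ arrays all 13 estimates are negative, from -0.36 for Irf1 to -0.09 for a Gbp7 probe set, with 4 genes turning positive under array weights, and none passes the test.

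In the CCR2- arrays, too, none of the 9 genes and none of the 18194 passed with limma (0 called, 0%), with 390 genes (2.14%) and 0 of the 9 at an unadjusted p under 0.05. The differences were negative for 8 of the 9 (50.9% of all genes), with a median of -0.08 against 0 for all genes. Irf1 read 11.12, 11.21, 11.13 and 11.16 in Control and 10.89, 11.00, 10.97 and 10.72 in RbpjiΔEC arrays. All 4 RbpjiΔEC values lay below all 4 Control values, as held in this direction for 1 of the 9 genes and 0.758% of all genes. The difference was -0.26 (SE 0.15, 95% interval -0.59 to 0.06, limma adjusted p = 1). Irgm1 was the exception in sign at 0.30 (-0.28 to 0.87). Gbp7 lay at 0 (-0.35 to 0.35) and Igtp at -0.01 (-0.35 to 0.34), the latter turning to 0.02 without RbpjiΔEC 2 or 3 and 0.01 without Control 2 or 4. Gbp2 at -0.07 and Irgm2 at -0.08 turned to 0.05 and 0.09 without RbpjiΔEC 1.

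The genotype differences of the 2 labels were compared by the interaction, which was called for 0 of 18194 genes (0%), with 555 (3.05%) and 0 of the 9 at an unadjusted p under 0.05. The 9 values ran from -0.48 for Irgm1 to 0.18 for Iigp1 (-0.85 to 1.21), all with a limma adjusted p of 0.999. Summed neutrophil markers did not overlap between the genotypes in the CCR2+ arrays, at 915 to 2500 in Control and 735 to 838 in RbpjiΔEC arrays over 6 measured genes, of which 0 were called. In the CCR2- arrays the sums were 682 to 3813 and 667 to 789. Their part in the differences above was not tested.

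Within CCR2+ RbpjiΔEC the 9 genes moved as a block from array to array. In arrays 1 and 2 every one of the 9 lay below its group mean, and in arrays 3 and 4 every one lay above. Some genes outside the 9 split these arrays too. Atg5 read 10.54, 10.56, 11.10 and 10.96 in arrays 1 to 4, and Ptpn2 read 10.63, 10.65, 11.16 and 11.01. Rbpj split the other way, at 11.77, 11.57, 11.17 and 11.19, and Atg3 did not split, at 12.37, 12.19, 12.32 and 12.33. The share of all genes that split so was not counted. The mean of the 9 deviations was -0.30, -0.51, 0.32 and 0.49 in arrays 1 to 4, while in the 12 other arrays it stayed between -0.17 and 0.21. Iigp1 had the widest swing, from -1.04 in array 2 to 0.99 in array 4, and Irgm2 ranged from -0.33 to 0.43. The SD was larger in CCR2+ RbpjiΔEC than in CCR2+ Control for all 9 genes, where 51.1% of all genes had the larger SD there. The median ratio of the SDs was 2.17 for the 9 genes and 1.02 for all genes. Irf1 went from an SD of 0.04 to 0.44, and Irgm1 only from 0.41 to 0.47. The 9 genes share these arrays and varied together, so their SDs are not 9 separate observations.

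The array controls did not divide these 4 arrays the same way. The 3′ minus 5′ difference of the actin probe sets, a measure of RNA integrity, was 0.44, 0.24, 0.42 and 0.44 in arrays 1 to 4, and log2 of the deposited 18S rRNA signal was 12.69, 13.48, 12.72 and 12.76. Array 1 read like arrays 3 and 4 in both, and array 2 stood apart. The 3′ minus 5′ difference of the Gapdh probe sets was 0.08, 0.25, 0.25 and 0.17 in arrays 1 to 4. Summed markers of large peritoneal macrophages ranged from 80990 to 83401 over the 4 arrays and summed B cell markers from 3795 to 4256. Those of small peritoneal macrophages, monocytes and dendritic cells ranged from 4195 to 6007. The part of RNA integrity or of the cell mixture in the split was not tested. Against CCR2+ Control, mean actin 3′ minus 5′ was 0.386 against 0.262 (exact permutation p = 0.0857, two-sided), with 0.0286 the smallest p that 4 against 4 arrays allow.

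The deviations of the 9 genes from their group means were positively correlated in all 36 pairs over the 16 arrays, with Pearson r from 0.40 to 0.88 and a median of 0.62. Much of this came from the 4 CCR2+ RbpjiΔEC arrays. In the 12 others, a selection made after the values were seen, the pairs ran from -0.63 to 0.75 with a median of 0.19, and 28 of the 36 were above 0. These are descriptions over arrays that share their group means and their normalization.

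**Figure D4:**
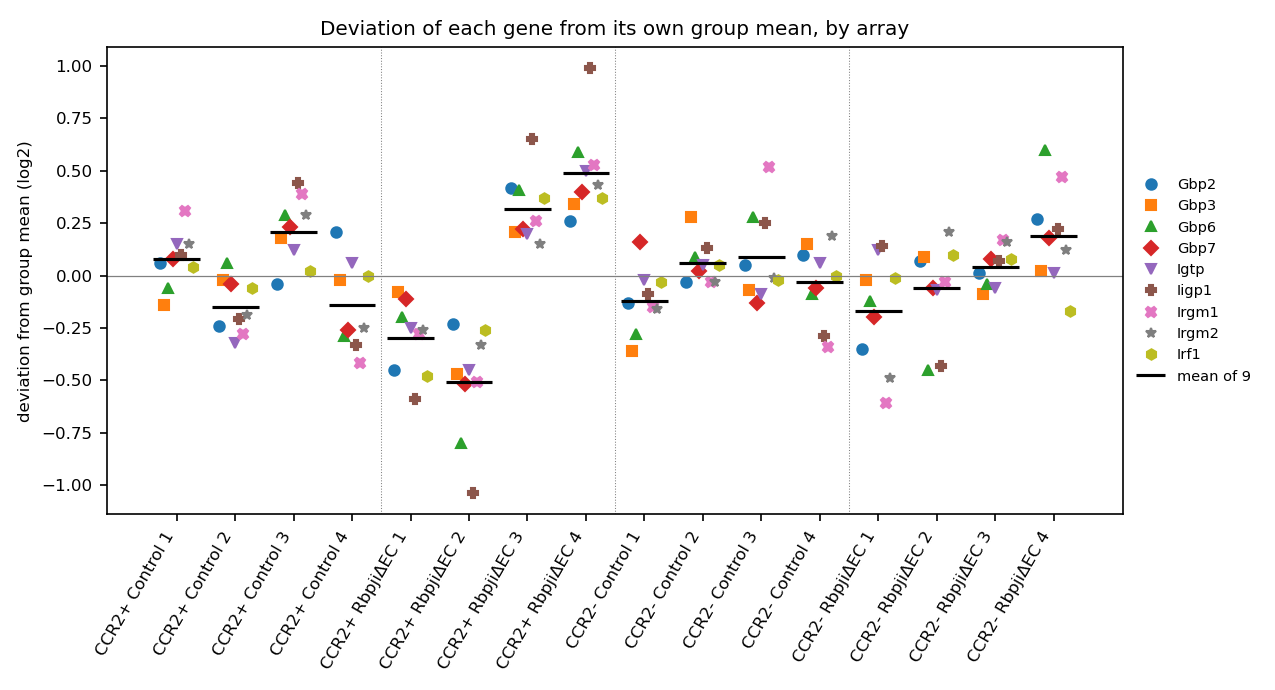
Deviation of each of the 9 genes from its own group mean, by array. The y axis is in log2 units, symbols are genes, and the black bar is the mean of the 9. In CCR2+ RbpjiΔEC the bar lies at -0.30 and -0.51 in arrays 1 and 2 and at 0.32 and 0.49 in arrays 3 and 4, while elsewhere it stays between -0.17 and 0.21.

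Of the 9777 genes with a mean level of at least 8 log2 units, those whose deviations were most like the mean of the 9 over the 16 arrays were Gbp8 (r = 0.95), Ifit1 (0.92), Gpbp1 (0.90), Rsad2 (0.90), Ifi47 (0.88), Herc6 (0.86), Il15ra (0.85), Ifit3 (0.85), Usp18 (0.84) and Dr1 (0.84). Of the squared mean deviation of the 9 genes, 78.4% lay in the 4 CCR2+ RbpjiΔEC arrays, so these r values mostly follow the split of those arrays. Gbp8, another GBP gene, read 7.80, 6.81, 9.97 and 10.78 in the CCR2+ RbpjiΔEC arrays, again low in arrays 1 and 2 and high in arrays 3 and 4. In CCR2+ Control it read 9.51, 9.92, 10.33 and 8.97, between those extremes. The genotype difference of Gbp8 in the CCR2+ arrays was -0.84 (SE 0.63, limma adjusted p = 0.966). Ifit1, Rsad2, Herc6, Ifit3 and Usp18 are known as interferon-stimulated genes, and Ifi47 encodes an IRG protein. Gpbp1, Herc6, Il15ra and Dr1 are in none of the pathway lists used below. For Irf1 alone the nearest genes were Ifi203 (r = 0.90), Pnpt1 (0.88), Polr1c (0.88), Map3k6 (0.86) and Rsad2 (0.85), of which only Rsad2 is in those lists.

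At the head of the pathway, Ifng, the ligand gene, read 6.13 to 6.67 in all 16 arrays, about the level of the trp control. Ifngr1, the ligand-binding receptor chain, averaged 11.50 in CCR2+ and 11.02 in CCR2- Control arrays, a difference of 0.48 (SE 0.11, limma adjusted p = 0.00214), with 0.54 (SE 0.11) in RbpjiΔEC mice. Ifngr2, the signalling chain, differed by 0.42 (SE 0.13, limma adjusted p = 0.0193) in Control mice. In RbpjiΔEC mice its difference was 0.34, which did not pass. T and NK cells are known sources of the ligand. Over 11 measured markers of these cells the sums were 1911 to 2636 in CCR2+ and 10704 to 12554 in CCR2- Control arrays, with 1 marker higher and 3 lower in the former. The CCR2- sum was carried by Cd2, at a mean of 12.83, which mouse B cells also express, and by Prf1 at 11.34. Cd3d, Cd3e, Cd8a, Ncr1, Gzma, Gzmb and Nkg7 averaged between 6.42 and 7.40 in the Control arrays of both labels, and none of these was called there. The T cell gene Cd3g was called lower, at 6.88 in CCR2+ against 8.05 in CCR2- Control arrays (-1.17, SE 0.31, limma adjusted p = 0.00638). Cd8b1 was called higher, at 6.97 against 6.68 (0.28, SE 0.11, limma adjusted p = 0.0429).

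The counts in the lists that follow are read against all genes, of which 19.4% were called higher and 21.4% lower in Control mice, and 18.1% and 21% in RbpjiΔEC mice. Of 10 measured signalling and transcription factor genes, 2 had higher and 4 had lower levels under the CCR2+ label in each genotype (median -0.19 and -0.22, against -0.03 for all genes). The higher count is near its share. Jak1 and Jak2, the receptor kinases, differed by -0.58 (SE 0.09) and -0.86 (SE 0.12) in Control mice. Ciita, the activator of MHC class II genes, which B cells also express, differed by -2.94 (SE 0.23, limma adjusted p = 1.52e-08), and Irf8 by -1.06 (SE 0.34). Irf2, which competes with IRF1 for its sites, differed by 0.71 (SE 0.15), and Batf2 by 0.96 (SE 0.17). B cell markers, summed above, were lower under the CCR2+ label as well. So were 8 of 10 measured markers of small peritoneal macrophages, monocytes and dendritic cells, with sums of 4452 to 5519 in CCR2+ and 11673 to 17808 in CCR2- Control arrays. The part of either in the values of Ciita and Irf8 was not tested.

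Of 8 feedback inhibitors, 2 had higher and 3 had lower levels in CCR2+ than in CCR2- arrays of Control mice, and 2 and 4 in RbpjiΔEC mice, few genes to read against those shares. Usp18, which restrains type I interferon signalling, differed by 0.98 (SE 0.21) and Socs3, an inhibitor of cytokine receptor kinases, by 0.82 (SE 0.19) in Control mice. Socs1, the main brake on interferon-gamma signalling, differed by -0.55 (SE 0.10), and Cish by -0.54 (SE 0.14) in Control and -1.16 (SE 0.14) in RbpjiΔEC mice.

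Further members of both families were measured by few single-symbol probe sets. Of 2 other GBP genes, Gbp2b, the neighbour of Gbp2 and Gbp3, exceeded its CCR2- level by 1.30 (SE 0.34, limma adjusted p = 0.00543) in Control and 1.51 (SE 0.34) in RbpjiΔEC mice, and Gbp8 at 1.01 (SE 0.63) did not pass. Of 4 other IRG genes, 1 was higher and 1 lower in each genotype. Gm4951 read 11.57, 11.61, 11.59 and 11.08 in CCR2+ and 7.40, 7.20, 7.26 and 7.26 in CCR2- Control arrays. The groups lay far apart, as for Iigp1, by a mean of 4.18 (SE 0.15, limma adjusted p = 7.2e-13). Irgq differed by -0.45 (SE 0.13), while Ifi47 at 0.27 (SE 0.16) did not pass.

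Of 17 measured interferon-gamma targets outside the GTPases, 5 had higher and 4 had lower levels in CCR2+ than in CCR2- arrays of Control mice (median 0.07), and 4 and 6 in RbpjiΔEC mice (median -0.18), where all genes gave the shares of 19.4% and 21.4% and of 18.1% and 21%. Fcgr1, the high-affinity IgG receptor of macrophages, differed by 3.22 (SE 0.16, limma adjusted p = 5.3e-11), and Acod1, the itaconate-making enzyme, by 2.95 (SE 0.27). Lower were Cd274, which encodes PD-L1, at -1.41 (SE 0.17), and the antigen-processing gene Tap1 at -0.70 (SE 0.11). Of 14 genes known mainly as type I interferon targets, 11 were higher and 1 lower in each genotype (19.4% and 18.1% of all genes were higher), with a median of 1.59 in Control mice against -0.03 for all genes. Rtp4 differed by 3.11 (SE 0.16) and Oasl2 by 2.56 (SE 0.24), while Ifit2 differed by -1.21 (SE 0.25).

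Among 16 genes whose products work with the GTPases, in loading them on vacuoles or in inflammasomes, 8 had higher and 0 had lower levels under the CCR2+ label in each genotype, beside 19.4% and 21.4% of all genes in Control and 18.1% and 21% in RbpjiΔEC mice. Atg7, an enzyme of the autophagy conjugation system, differed by 2.12 (SE 0.09, limma adjusted p = 1.25e-11) in Control mice, and the inflammasome sensor gene Nlrp3 by 1.97 (SE 0.27). Sqstm1, which encodes the adaptor p62, differed by 1.06 (SE 0.13), Casp4, an inflammasome caspase gene, by 1.00 (SE 0.12), and Gsdmd, the pore former, by 0.91 (SE 0.14). Large peritoneal macrophage markers rose with the same label, 10 of 10, and their part in these list values was not tested.

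**Figure D5:**
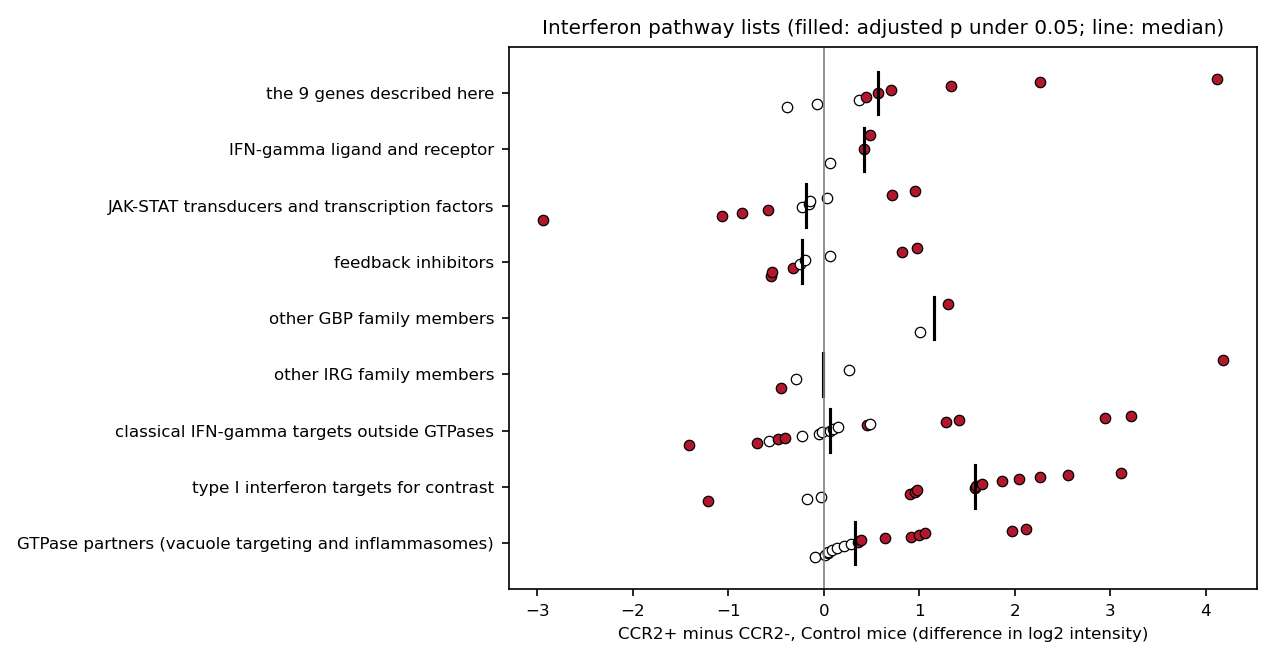
Difference between CCR2+ and CCR2- arrays of Control mice for the 9 genes and for 8 lists of the interferon pathway. The x axis is the difference in log2 intensity, each point is 1 gene, filled points passed limma at adjusted p under 0.05, and the black line is the list's median. The type I interferon targets have a median of 1.59 and the 9 genes one of 0.57, and the signs of Gbp2 and Gbp7 within the 9 turn with median centring.

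By genotype, 0 genes of the 8 lists passed in either label. The interferon-gamma targets outside the GTPases had negative differences for 15 of 17 in the CCR2+ arrays (52.5% of all genes), with a median of -0.16, and for 7 of 17 in the CCR2- arrays. These genes share their arrays too, so their signs are not separate observations. Acod1 was at -0.94 (SE 0.27, limma adjusted p = 0.898), reading 10.20, 9.36, 9.74 and 10.51 in Control and 9.38, 8.12, 8.94 and 9.60 in RbpjiΔEC arrays, with overlap. Cxcl10, a chemokine for T cells, read 7.25, 7.17, 7.26 and 7.32 against 6.19, 6.05, 7.34 and 6.97. Its RbpjiΔEC arrays 1 and 2 again lay lowest, but both were below the trp control (6.35 to 6.51 over all arrays), at background. The Cxcl10 difference was -0.61 (SE 0.24, limma adjusted p = 0.966). Among feedback inhibitors Cish was at -0.49 (SE 0.14, limma adjusted p = 0.898).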

How the data were processed

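The 16 Affymetrix mouse genome arrays of sorted peritoneal cells, labelled as macrophages, were read from the authors' deposited value table, which holds 45101 linear probe set intensities per array. The authors' normalization of them is not stated in the sources used here. The intensities were log2 transformed and quantile normalized over the 16 arrays. Gene names came from the platform annotation: 34958 probe sets had 1 symbol, 932 had several and 9211 had none, of which 51 were array controls. The last 2 kinds were left out. The probe set with the highest mean stood for each of 18194 genes, and each further probe set of the 9 genes was also tested singly. No filter on dim probes was applied. RefSeq changed 0 of the 9 symbols.

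Group means were fitted and compared by limma 3.58.1 (R 4.3.3) with eBayes, two-sided, and Benjamini-Hochberg adjustment over all genes at 0.05. For 5 comparisons, the genotypes were compared for either label, the labels for either genotype, and both through an interaction. Errors of means are SDs over 4 arrays, and errors of differences are limma's SE. Array controls were compared with exact permutation tests. No depth applies to arrays, and their number limits the precision. The method was tested on simulated data.

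The 9 genes, the pathway and marker lists and the tests were chosen with earlier results of these data known. The rule for named genes took the 9 genes, Rbpj, context genes (Gata6, Adgre1, Itgam, Cd79a, Ms4a1 and Ifng) and, from each list and comparison, up to 4 called members, the 2 largest differences in each direction, or else the smallest p. The text prints part of these. It also names Ccr2, Jak1, Jak2, Gbp8, Ifi47, Cxcl10, Sqstm1, Casp4 and Gsdmd, which were chosen after their values were seen or through the likeness ranking. Atg3, Atg5 and Ptpn2 were likewise chosen after their values were seen. Likeness was the Pearson r of deviations from group means. Alternatives were 2 other normalizations, normalization within each label, other probe set rules, a filter on dim genes, other spread estimates, array weights, only the groups compared, a replicate block and leaving out each array.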

Additional observations from a re-analysis of the deposited data

Results flagged for a closer look

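Irgm2 read 8.61 in array CCR2- RbpjiΔEC 1, apart from the 9.22 to 9.31 of the other arrays of its group, and the gap to the nearest array was 0.882 of the group's range. It stood out by Dixon's test for an outlying value in a group of 4. The test covered 52 combinations of probe set and group, and chance marks about 1 in 20 groups, so a single mark is fewer than chance alone gives on average. The array was kept. Without it the genotype difference of Irgm2 in the CCR2- arrays was 0.09 in place of -0.08, and neither value passed limma's test.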

How the results depend on the processing

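Iigp1, Gbp6 and Irgm2 were called higher in the CCR2+ arrays in 26 of 26 settings in both genotypes, and Igtp in 26 of 26 in Control mice. Other calls depended on the setting, in Control and RbpjiΔEC mice respectively: Irf1 20 and 5 of 26, Irgm1 17 and 1, Gbp7 3 and 17, Gbp3 4 and 5, Igtp 7 in RbpjiΔEC mice, and Gbp2 0. The genotype comparisons and the interaction called 0 of the 9 genes in every setting run. The cause of the changes below was not tested.

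Signs turned as follows. Median centring gave Gbp2 0.49 and Gbp7 0.18 for the label in Control mice, Gbp2 0.17 for the label in RbpjiΔEC mice, and Gbp2 0.03 and Igtp 0.04 for the genotype in CCR2- arrays. Log2 of the deposited values, which shifted the median of all genes to 0.23 for the label in RbpjiΔEC mice and to -0.16 for the genotype in CCR2- arrays, gave Gbp2 0.54 and 0.46 and Gbp7 0.24 and 0.19 for the label in Control and RbpjiΔEC mice. It also called 7 of the 9 genes in RbpjiΔEC mice. The mean of all probe sets gave Gbp2 0.25 and 0.06. Array weights gave Gbp6 0.06, Gbp7 0.05, Igtp 0.06 and Iigp1 0.30 for the genotype in CCR2+ arrays and Irgm2 0.01 in CCR2- arrays, and ended the Gbp7 call in RbpjiΔEC mice (adjusted p = 0.0565), as did the fit of only the 2 groups (0.0747).

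For the genotype in CCR2+ arrays, 2 genes of all were called with the mean of probe sets, 2 probe sets when fitted singly, and 1 gene each with genes above the lowest tercile and with array weights. The label called 14534 and 13686 probe sets fitted singly, where more features were tested. Leaving out 1 array at a time gave 4 to 8 of the 9 genes called for the label in Control and 3 to 6 in RbpjiΔEC mice, and over all genes 0 to 2 for the genotype in CCR2+ and 0 to 1 in CCR2- arrays. The differences then ranged, for the genotype in CCR2+ arrays, from -0.35 to 0.11 for Gbp6, -0.22 to 0.08 for Gbp7 and -0.43 to 0.25 for Iigp1. For the genotype in CCR2- arrays they ranged from -0.16 to 0.05 for Gbp2, -0.05 to 0.02 for Igtp and -0.15 to 0.09 for Irgm2, and for the label in Control mice from -0.14 to 0.01 for Gbp2.

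Cells of both labels could come from the same lavage, so arrays of the same number could be pairs in the label comparisons. There the r of their deviations over all genes was 0.05, -0.03, 0.21 and 0.40 for numbers 1 to 4 in Control mice. In RbpjiΔEC mice it was 0.24, 0.04, 0.06 and 0.13. In both genotypes CCR2+ arrays 1, 3 and 4 had their highest r with the CCR2- array of their own number, and array 2 did not. In the genotype comparisons r ran from -0.38 to 0.19. The sources used here do not say that the numbers mark pairs, so a possible pairing was left out of the main tests. With the replicate block 7 of the 9 genes were called for the label in Control mice, Gbp7 being added at -0.38 (adjusted p = 0.0366), and 4 in RbpjiΔEC mice, with 7663 and 7366 of all genes and 0 in the other comparisons. The median correlation of the 9 genes' deviations was 0.19 without the 4 CCR2+ RbpjiΔEC arrays, an alternative chosen after seeing the data.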
